A study of Mus musculus with 8 samples.

Results

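Wnt/β-catenin target genes were followed in control and Dax1KO mouse embryonic stem cells (ESCs) in 2 culture media. The 9 genes, Axin2, Nkd1, Notum, Lef1, Tcf7, Sp5, Cdx1, T and Wnt3, were listed by symbol as genes known to respond to Wnt signaling and matched to the Ensembl identifiers of the count tables, which list 52550 genes. Each symbol matched a listed gene, and all 9 passed the filter on low counts that kept 20749 genes. Control ESCs and ESCs without Dax1 (Nr0b1), an orphan nuclear receptor, were grown at passage 3 on gelatin. In 2i/LIF, N2B27 medium held 1 µM of the MEK inhibitor PD0325901, 3 µM of the GSK3 inhibitor CHIR99021 and 10 ng/ml LIF. In LIF/serum, DMEM held 15% FBS and 10 ng/ml LIF and neither inhibitor. The knockout was made with CRISPR/Cas9 and a guide at the start codon of Dax1. Dax1KO lines were expanded from picked colonies, and the study used the colony Dax1KO-7 for its functional experiments. Its RNA sequencing methods name no colony, and no rescue line is among the libraries. Loss of Dax1 and other differences between the picked knockout cells and control cells can therefore not be told apart. An effect of Dax1KO below means the difference of Dax1KO from control cells. After transfer to LIF/serum, the study saw differentiation and massive death of Dax1KO cells, which could not be passaged for long. The 4 groups had 2 mRNA libraries each. No label says that the libraries of a group came from separate cultures, so the p-values measure the spread between these samples, which may be technical.

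In the canonical Wnt pathway, secreted Wnt ligands bind Frizzled receptors with the co-receptors Lrp5 and Lrp6, and Dishevelled passes the signal on. Without a ligand, a destruction complex of Axin, Apc, casein kinase and Gsk3 marks β-catenin (Ctnnb1) for degradation. When the complex or its kinase Gsk3 is inhibited, β-catenin accumulates and joins TCF/LEF factors on DNA, where it turns on genes that include inhibitors of the pathway itself. In mouse ESCs, CHIR99021 is added to 2i/LIF to inhibit Gsk3, and β-catenin is known to relieve the repression of pluripotency genes by Tcf7l1. The comparisons ask how the levels of the response genes differed between the medium with and the medium without the GSK3 inhibitor, and between Dax1KO and control cells. The MEK inhibitor, the serum and the basal medium changed together with the GSK3 inhibitor, so their parts in a difference between media cannot be told apart.

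The libraries held between 35911384 and 37286251 counts. Dax1 itself had 456 and 300 counts in control cells in 2i/LIF and was at 0 in each Dax1KO library there, and 5095 and 4689 against 14 and 6 in LIF/serum. The 8 ESC markers, among them Pou5f1, Nanog and Sox2, summed to between 167503 and 217317 normalized counts in every library (140339 to 163737 without Nanog). None of the 8 was at the floor of 3 counts. By the test given below, 3 of the 8 were higher and 1 lower in 2i/LIF in control cells, and 2 higher and 3 lower in Dax1KO cells. Between genotypes 0 passed in 2i/LIF and 1 in LIF/serum, as upregulated. Normalized counts are counts scaled to equal library size with TMM factors, which lay between 0.960 and 1.04. The 9 genes lie on chromosomes 2, 3, 8, 11, 17 and 18 and none on chromosome 6, where the median over genes of the Dax1KO over control log2 ratio was 0.44 in 2i/LIF and 0.52 in LIF/serum.

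**Figure D1:**
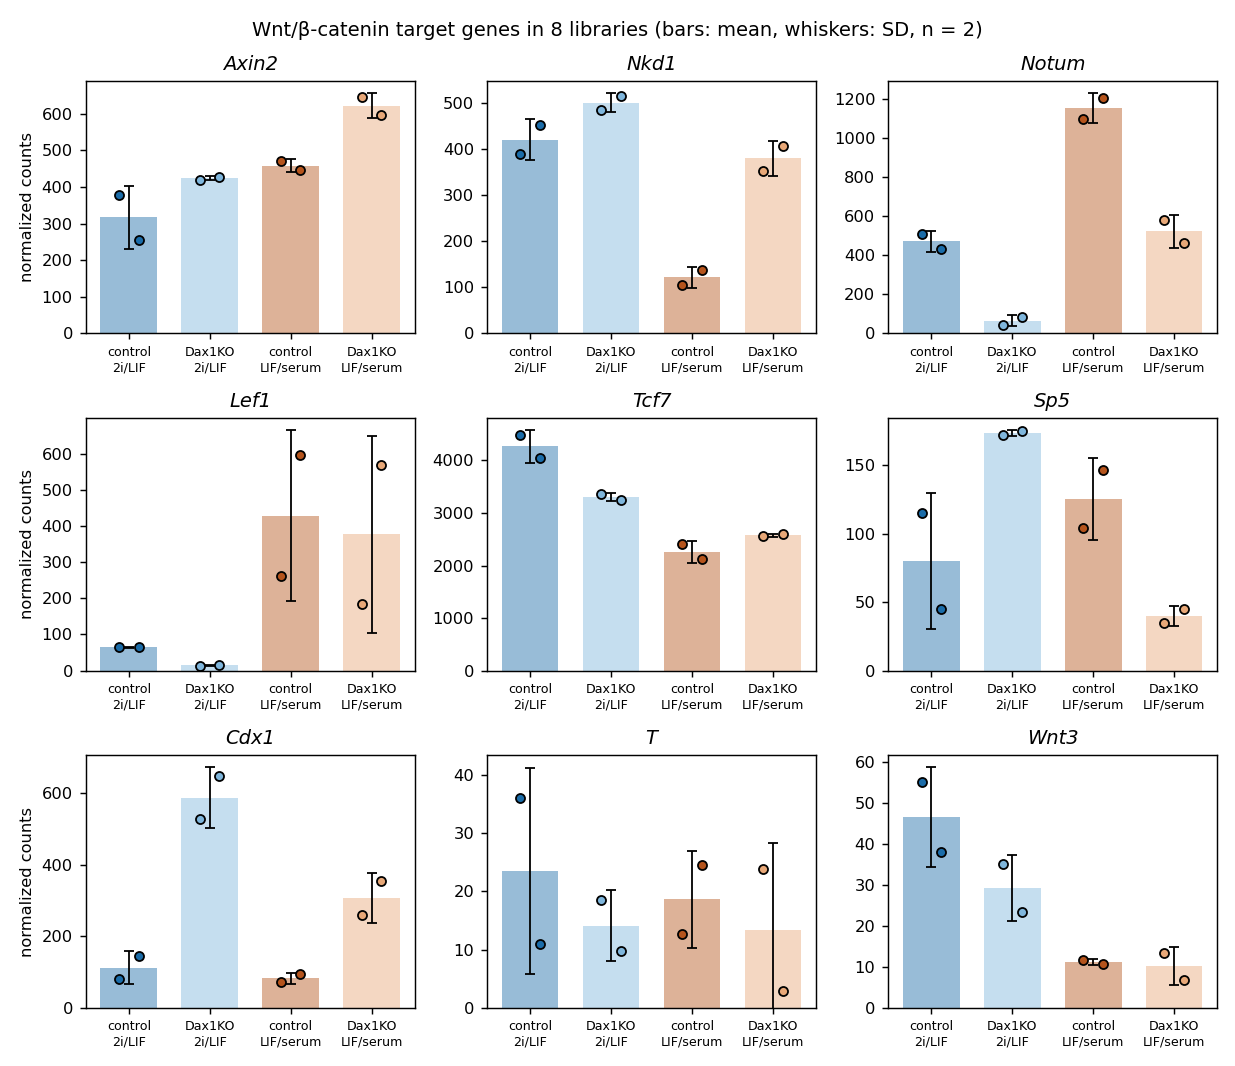
Normalized counts (y axis, from 0) of the 9 Wnt/β-catenin target genes in the 4 groups (x axis). Points are libraries, bars are the mean and whiskers the SD of 2 libraries, cut off at 0 for T. The genes had no common order of groups: Tcf7 and Wnt3 were highest in control cells in 2i/LIF, Cdx1, Nkd1 and Sp5 in Dax1KO cells in 2i/LIF, Lef1 and Notum in control cells in LIF/serum, and Axin2 in Dax1KO cells in LIF/serum.

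The 9 genes did not share a pattern over the 4 groups. By group mean, 3 genes were highest in control cells in 2i/LIF, 3 in Dax1KO cells in 2i/LIF, 2 in control cells in LIF/serum and 1 in Dax1KO cells in LIF/serum. The ratio of the highest to the lowest group mean ran from 1.75 for T and 1.88 for Tcf7 to 17.5 for Notum and 29.3 for Lef1. Per kilobase of exon, the scale on which genes can be set side by side, Tcf7 had the highest level in each group, with means between 862 normalized counts per kb in control cells in LIF/serum and 1626 in control cells in 2i/LIF. Notum came second in 3 groups, at 195 in control cells in 2i/LIF, 478 in control cells in LIF/serum and 217 in Dax1KO cells in LIF/serum. In Dax1KO cells in 2i/LIF it was sixth, at 27.4, and Cdx1 was second, at 336 normalized counts per kb. The lowest level in LIF/serum was that of Wnt3, at 3.63 in control and 3.29 in Dax1KO cells, and in Dax1KO cells in 2i/LIF that of Lef1, at 1.66. These places were the same per kilobase of the longest transcript, a length added after the data were seen. In control cells in 2i/LIF the lowest was Lef1 per kilobase of all its exons (7.41), but T per kilobase of the longest transcript (11.5, with Lef1 at 17.8).

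Axin2, Nkd1 and Notum encode inhibitors of the pathway that it switches on itself. Axin2 (ENSMUSG00000000142.15, chromosome 11, 108920349 to 108950783, plus strand of GRCm38) is a scaffold of the destruction complex and the usual readout of β-catenin activity. Its normalized counts were 378 and 255 in control cells and 419 and 428 in Dax1KO cells in 2i/LIF, and 471 and 445 in control cells and 646 and 597 in Dax1KO cells in LIF/serum. The groups did not overlap, and control cells in 2i/LIF were the lowest and Dax1KO cells in LIF/serum the highest. Nkd1 (ENSMUSG00000031661.12, chromosome 8, 88521354 to 88594884, plus strand), which binds Dishevelled, had 389 and 453 in control and 486 and 516 in Dax1KO cells in 2i/LIF, and 106 and 139 in control and 353 and 408 in Dax1KO cells in LIF/serum. The control libraries in LIF/serum stood below the other 6, while Dax1KO cells in LIF/serum overlapped with control cells in 2i/LIF. Notum (ENSMUSG00000042988.10, chromosome 11, 120653788 to 120661175, minus strand), a secreted enzyme that removes the lipid from Wnt proteins, had 508 and 432 in control and 45.7 and 86.0 in Dax1KO cells in 2i/LIF, and 1096 and 1206 in control and 582 and 463 in Dax1KO cells in LIF/serum. In each medium the Dax1KO libraries were the lower. The antisense gene Notumos overlaps Notum and is matched by 27.8% of its longest transcript, and it had raw counts of 103 and 75, 11 and 11, 296 and 254, and 142 and 92 in the same order of groups, so without knowledge of the strand the reads of these genes cannot be told apart.

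Lef1 and Tcf7 encode TCF/LEF factors, the DNA-binding partners of β-catenin, and are themselves Wnt-responsive. Lef1 (ENSMUSG00000027985.14, chromosome 3, 131110471 to 131224356, plus strand) had 66.2 and 64.0 normalized counts in control and 13.6 and 15.6 in Dax1KO cells in 2i/LIF. In LIF/serum its values were 262 and 596 in control and 185 and 570.4 in Dax1KO cells. All 4 libraries in LIF/serum were above the 4 in 2i/LIF. Within LIF/serum the libraries of each genotype differed so much that the genotypes overlapped, and replicate 1 was the lower in both genotypes. The antisense gene Gm43352, which overlaps Lef1, had raw counts between 0 and 3 in 2i/LIF and between 27 and 108 in LIF/serum. Tcf7 (ENSMUSG00000000782.15, chromosome 11, 52252371 to 52283014, minus strand) had 4485 and 4049 in control and 3361 and 3250 in Dax1KO cells in 2i/LIF, and 2412 and 2116 in control and 2557 and 2597 in Dax1KO cells in LIF/serum. Its groups did not overlap, and the SD of a group was at most 308 normalized counts.

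Sp5, Cdx1 and T encode transcription factors. Sp5 (ENSMUSG00000075304.2, chromosome 2, 70474923 to 70477729, plus strand), a zinc finger factor, is among the genes that respond most directly to Wnt. It had 115 and 45.01 normalized counts in control and 172 and 175 in Dax1KO cells in 2i/LIF, and 104 and 146 in control and 34.4 and 44.9 in Dax1KO cells in LIF/serum. Among the 4 groups, Dax1KO cells in 2i/LIF were the highest and Dax1KO cells in LIF/serum the lowest, and the control groups overlapped. Cdx1 (ENSMUSG00000024619.8, chromosome 18, 61018862 to 61036199, minus strand), a caudal-type homeobox factor of posterior patterning, had 79.2 and 144 in control and 527 and 648 in Dax1KO cells in 2i/LIF, and 71.0 and 93.9 in control and 258 and 356 in Dax1KO cells in LIF/serum. Both Dax1KO groups were above both control groups, which overlapped with each other. T (Brachyury, ENSMUSG00000062327.10, chromosome 17, 8434423 to 8442496, plus strand), the T-box factor of the primitive streak, had 36.1 and 11.003, 18.5 and 9.77, 12.7 and 24.5, and 23.9 and 2.93 in the same order. Each neighbouring pair of groups overlapped, and raw counts of T lay between 3 and 36. With such counts and such a spread between the libraries of a group, a difference of moderate size was not detectable.

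Wnt3 (ENSMUSG00000000125.5, chromosome 11, 103774150 to 103817957, plus strand) encodes a Wnt ligand that acts at the start of gastrulation. It had 55.1 and 38.0 normalized counts in control and 35.0 and 23.5 in Dax1KO cells in 2i/LIF, and 11.7 and 10.7 in control and 13.4 and 6.83 in Dax1KO cells in LIF/serum. All libraries in 2i/LIF were above all in LIF/serum, where raw counts lay between 7 and 14 and the genotypes overlapped.

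TCF/LEF factors bind a short DNA motif. The windows of 250 bases before the annotated starts of these genes were searched for a form of its core, CTTTGA. Both strands were searched (reverse complement TCAAAG), and other forms of the core were not. Windows were found for 7 of the 9 genes in the RefSeq table of GRCm38.p6. Of these 7, 3 held CTTTGA or TCAAAG in at least 1 window, against 15.8% of all 27025 genes with a window. By window, 3 of 11 (27.3%) held it, against 13.8% of all 32851. Sp5 is shown because it held 2 matches, T because it held 1, and Axin2 because this window held none, with matches in capitals and each sequence 5′ to 3′ on the strand of its gene. The windows are chr2:70474673-70474922 for Sp5, chr17:8434173-8434422 for T and chr11:108920099-108920348 for Axin2, all on the plus strand.
Sp5: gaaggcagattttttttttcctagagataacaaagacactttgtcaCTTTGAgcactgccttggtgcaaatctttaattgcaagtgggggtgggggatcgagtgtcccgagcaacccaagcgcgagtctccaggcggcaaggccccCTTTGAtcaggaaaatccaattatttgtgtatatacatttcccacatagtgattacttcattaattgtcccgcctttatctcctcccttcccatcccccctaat
T: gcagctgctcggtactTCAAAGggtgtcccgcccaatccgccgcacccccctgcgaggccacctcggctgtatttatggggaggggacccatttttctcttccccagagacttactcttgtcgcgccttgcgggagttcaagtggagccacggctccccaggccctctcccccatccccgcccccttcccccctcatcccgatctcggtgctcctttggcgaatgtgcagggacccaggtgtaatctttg
Axin2: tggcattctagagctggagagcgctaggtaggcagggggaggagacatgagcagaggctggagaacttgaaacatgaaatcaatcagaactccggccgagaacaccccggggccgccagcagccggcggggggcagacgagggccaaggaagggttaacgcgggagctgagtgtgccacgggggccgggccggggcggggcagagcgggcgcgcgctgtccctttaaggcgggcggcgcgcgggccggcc
The matches of Sp5 began 204 and 104 bases before the start, in the orientation CTTTGA, and the match of T began 234 bases before it, as TCAAAG. Lef1 had 4 windows, of which 1 held 2 matches, at 180 and 120 bases before a start that lies inside the gene. The windows of Tcf7, Nkd1 and Wnt3 held none, but that of Nkd1 (chr8:88527383-88527632) lies inside the gene, and the bases before the Nkd1 start given here were not searched. A match is a description of these letters, and binding was not measured.

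In control cells, the response genes did not move in a common direction between the media. Of the 9 genes, 5 passed the test, that is, had a p of at most 0.05 in the edgeR quasi-likelihood test, Benjamini-Hochberg adjusted over all genes, with at least a 1.2-fold difference. Nkd1, Tcf7 and Wnt3 were higher and Lef1 and Notum lower in 2i/LIF. Of all genes tested, 36.8% passed, 20.3% upregulated and 16.5% downregulated in 2i/LIF, so with 9 genes a count of 5 is not far from this background. The libraries of the media did not overlap for 6 of the 9 genes, against 68.6% of all genes. The median log2 fold change of the 9 genes was 0.34 and that of all genes 0.01. In bulk RNA, fewer cells of a type and less RNA per cell cannot be told apart.

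Nkd1 rose by 1.78 on the log2 scale (standard error 0.20, edgeR adjusted p = 0.000434), a fold change of 3.44. Tcf7 rose by 0.91 (standard error 0.12, edgeR adjusted p = 0.000725). For Wnt3 the log2 fold change was 2.05 (standard error 0.52, edgeR adjusted p = 0.0161). Lef1 and Notum went the other way. Lef1 was 6.58-fold lower in 2i/LIF, at -2.72 on the log2 scale (standard error 0.57, edgeR adjusted p = 0.00747). Notum was 2.45-fold lower, with -1.29 (standard error 0.26, edgeR adjusted p = 0.00650). Axin2, whose control libraries were lower in 2i/LIF, had a log2 fold change of -0.53 that did not pass (95% interval -1.004 to -0.06, edgeR adjusted p = 0.0757). Sp5, Cdx1 and T did not pass either, with log2 fold changes of -0.64, 0.44 and 0.34 and 95% intervals of -1.61 to 0.33, -0.32 to 1.196 and -1.82 to 2.49.

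Nkd1, Tcf7 and Notum kept their calls without each of the 8 libraries in turn. Wnt3 lost its call without control replicate 1 in 2i/LIF (edgeR adjusted p = 0.0860) or without control replicate 1 or 2 in LIF/serum (0.0585 and 0.0704), and Lef1 without control replicate 2 in 2i/LIF (0.0527). Without control replicate 2 in LIF/serum, the log2 fold change of Lef1 was -2.03. Without control replicate 1 in 2i/LIF, Axin2 passed at -0.84 and Sp5 at -1.47 (edgeR adjusted p = 0.0219 and 0.0282). All 6 primitive endoderm markers, among them Gata6 and Sox17, were also lower in 2i/LIF, with a summed level of 1057 to 1072 normalized counts against 3915 to 5488. The primitive streak list, which leaves out T, summed to 1251 to 1444 in 2i/LIF against 527 to 581, with 2 of 8 markers up (Gsc and Eomes) and 1 down (Foxa2). The neural ectoderm list summed to 3408 to 3419 against 1163 to 1243, with 2 of 5 tested markers up, but without Nes, its most abundant gene, to 578 to 691 against 664 to 682. The trophectoderm list summed to 3815 to 4171 against 3723 to 3785, with 2 of 6 up and 1 down, but without Tfap2c, its most abundant gene, to 1078 to 1486 against 2312 to 2355. The part of these markers in the differences was not tested.

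**Figure D2:**
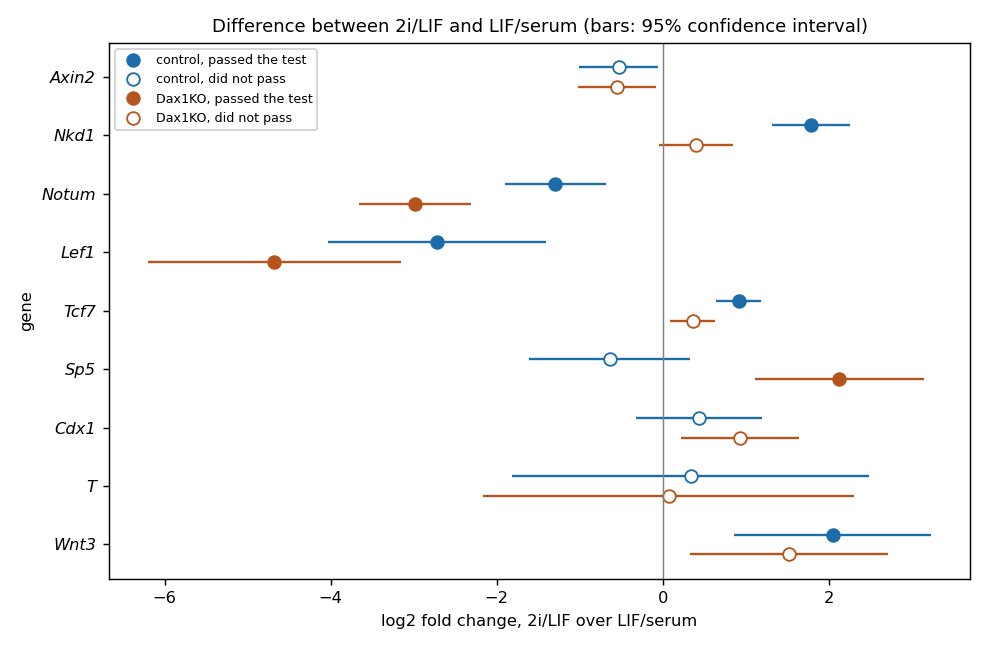
Log2 fold change of 2i/LIF over LIF/serum (x axis) for each of the 9 genes (y axis) in control and Dax1KO cells. Points are estimates, bars the 95% confidence interval of the single gene, which is not adjusted for the number of genes, and filled points passed the test. Lef1 and Notum lay left of 0 in both genotypes, and Nkd1, Tcf7 and Wnt3 passed the test in control cells and lay closer to 0 in Dax1KO cells.

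In Dax1KO cells, 3 of the 9 genes passed in the comparison of the media, Sp5 as upregulated and Lef1 and Notum as downregulated in 2i/LIF, against 28.9% of all genes (15.2% upregulated and 13.7% downregulated). For 8 of the 9 genes the media did not overlap, against 68.9% of all genes. Lef1 had the largest difference of the 9, at -4.68 on the log2 scale (standard error 0.66, edgeR adjusted p = 0.00164), a fold of 25.6. Its size followed the LIF/serum libraries, at -5.27 without Dax1KO replicate 1 and -3.65 without replicate 2. Notum had -2.99 (standard error 0.29, edgeR adjusted p = 0.000302). Sp5, which did not pass in control cells, rose by 2.13 (standard error 0.44, edgeR adjusted p = 0.00919), and lost the call without Dax1KO replicate 1 in LIF/serum (1.95, edgeR adjusted p = 0.0646).

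Several genes lay close to the threshold in Dax1KO cells. Tcf7 had a log2 fold change of 0.36 (95% interval 0.09 to 0.63, edgeR adjusted p = 0.0500389) and Cdx1 of 0.94 (0.23 to 1.65, edgeR adjusted p = 0.0539). Wnt3 had 1.52 (0.32 to 2.71, edgeR adjusted p = 0.0611) and Axin2 -0.55 (-1.02 to -0.08, edgeR adjusted p = 0.0781). Leaving out either control library in 2i/LIF, which adds nothing to the contrast itself but enters the shared spread, brought Cdx1 (edgeR adjusted p = 0.0312 and 0.0339) and Axin2 (0.0400 and 0.0342) past it, and leaving out either control library in LIF/serum did so for Tcf7 (0.0371 and 0.0406). Nkd1 was at 0.40 (-0.05 to 0.84, edgeR adjusted p = 0.165) and T at 0.07 (-2.16 to 2.31). Adding the replicate number as a block gave 6 genes that passed, with Tcf7, Cdx1 and Wnt3 added (edgeR adjusted p = 0.0430, 0.0123 and 0.0464). A separate fit of the Dax1KO libraries also gave 6, with Tcf7, Cdx1 and Axin2 added (edgeR adjusted p = 0.0426, 0.0259 and 0.0286). Cdx1 passed as well with DESeq2 (adjusted p = 0.0251), and in edgeR with at least 10 counts in every library (adjusted p = 0.0492) and with counts divided by 3 (adjusted p = 0.0366). All 6 primitive endoderm markers were lower in 2i/LIF here as well, with summed levels of 1082 to 1393 normalized counts against 12283 to 14567. The neural ectoderm list summed to 3070 to 3223 against 812 to 814 (2 of 5 tested markers up), and without Nes to 425 to 453 against 365 to 390.01. The primitive streak list summed to 1656 to 1660 against 920 to 1057 (2 of 8 up and 2 down). The trophectoderm list summed to 5318 to 5411 against 4436 to 4974 (1 of 6 up and 2 down), but without Tfap2c to 2690.3 to 2944 against 3490 to 4223. Their part was not tested.

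Dax1KO cells in 2i/LIF had higher Cdx1 and lower Notum than control cells. These 2 genes passed the test among the 9, against 3.16% of all genes tested (1.51% upregulated and 1.65% downregulated), and the groups of 8 genes did not overlap, against 51.8% of all genes. Cdx1 rose by 2.39 on the log2 scale in Dax1KO cells, a fold change of 5.26 (standard error 0.33, edgeR adjusted p = 0.0145). The call was lost without control replicate 1 (2.03, edgeR adjusted p = 0.0594) and without Dax1KO replicate 1 (2.54, 0.0759) or 2 (2.24, 0.0945), and without the filter on low counts (2.39, 0.0536). Notum was at -2.83 on the log2 scale (standard error 0.29, edgeR adjusted p = 0.00669), 7.13-fold lower, and kept its call without each of the 8 libraries in turn.

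The other 7 genes did not pass in 2i/LIF. Lef1 was 4.42-fold lower in Dax1KO cells, with a log2 fold change of -2.14 (95% interval -3.67 to -0.62, edgeR adjusted p = 0.136), and it passed with DESeq2 (adjusted p = 0.00346) and in an edgeR fit of the 2i/LIF libraries alone (adjusted p = 0.0437). Sp5 had 1.11 (0.14 to 2.08, edgeR adjusted p = 0.215), which was 1.94 without control replicate 1 and 0.60 without control replicate 2 (edgeR adjusted p = 0.0907 and 0.513), and Tcf7 -0.37 (-0.63 to -0.10, edgeR adjusted p = 0.142). The feedback genes Axin2 and Nkd1 had 0.42 (-0.05 to 0.89) and 0.25 (-0.19 to 0.70), and Wnt3 and T -0.67 (-1.76 to 0.43) and -0.73 (-2.91 to 1.45). The 8 primitive streak markers summed to 1656 to 1660 normalized counts in Dax1KO against 1251 to 1444 in control cells, but without Eomes to 566 to 606 against 629 to 654. Of the 8, 5 had log2 fold changes below 0, 0 passed with edgeR or DESeq2, and 2 had an unadjusted p under 0.05 (edgeR). The 6 trophectoderm markers summed to 5318 to 5411 against 3815 to 4171, with 2 of the 6 upregulated, and without Tfap2c to 2690.3 to 2944 against 1078 to 1486. The 6 primitive endoderm markers summed to 1082 to 1393 against 1057 to 1072, with 1 upregulated, but without Dab2 to 585 to 677 against 787 to 843. The neural ectoderm list summed to 3070 to 3223 against 3408 to 3419, and without Nes to 425 to 453 against 578 to 691, with 0 of 5 tested markers passing. Their part in these differences was not tested.

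**Figure D3:**
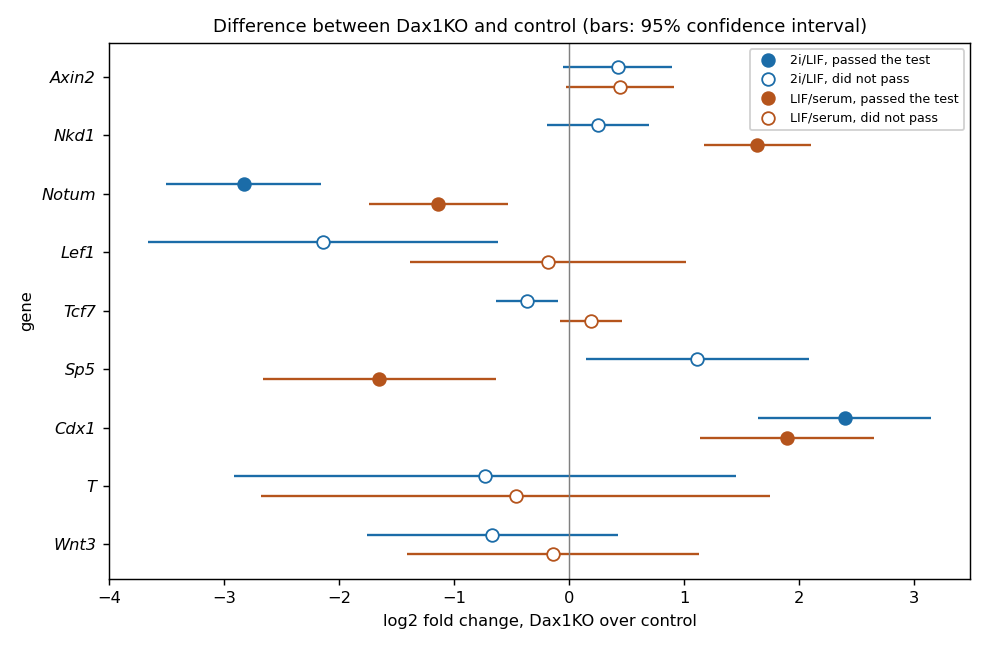
Log2 fold change of Dax1KO over control (x axis) for each of the 9 genes (y axis) in 2i/LIF and in LIF/serum. Points are estimates, bars the 95% confidence interval of the single gene, not adjusted for the number of genes, and filled points passed the test. Cdx1 lay right of 0 and Notum left of 0 in both media, Nkd1 passed in LIF/serum with 1.64 and lay at 0.25 in 2i/LIF, and Sp5 lay on opposite sides of 0.

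In LIF/serum, Dax1KO cells had higher Nkd1 and Cdx1 and lower Sp5 and Notum than control cells. The count of 4 of 9 compares with 14.7% of all genes tested, with 8.87% upregulated and 5.78% downregulated, and the genotypes did not overlap for 6 of the 9 against 57.5%. Nkd1 rose by 1.64 on the log2 scale (standard error 0.20, edgeR adjusted p = 0.00382), a fold change of 3.11, and passed without each library in turn. Cdx1 rose by 1.90 (standard error 0.33, edgeR adjusted p = 0.0105), 3.72-fold, and missed the threshold without control replicate 1 (edgeR adjusted p = 0.0533) or Dax1KO replicate 2 (0.0656). Notum, an inhibitor like Nkd1, moved the other way, to -1.14 on the log2 scale (standard error 0.26, edgeR adjusted p = 0.0269). Its call was lost without each of the 4 LIF/serum libraries in turn, with edgeR adjusted p between 0.0647 and 0.158, and without the filter on low counts (0.0700). Sp5 had -1.65 (standard error 0.44, edgeR adjusted p = 0.0423), 3.15-fold lower. It missed the threshold with the replicate number as a block (edgeR adjusted p = 0.0574), without the filter on low counts (0.100), and without each in turn of 6 of the 8 libraries, those of Dax1KO in 2i/LIF and all of LIF/serum (0.0673 to 0.174).

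The remaining genes did not pass in LIF/serum. Axin2 had a log2 fold change of 0.44 (95% interval -0.03 to 0.91, edgeR adjusted p = 0.185), close to its 0.42 in 2i/LIF. Tcf7 had 0.19 (-0.08 to 0.45) and Lef1 -0.18 (-1.38 to 1.02). Wnt3 and T had -0.14 (-1.41 to 1.13) and -0.47 (-2.68 to 1.75), intervals that leave large differences possible in either direction. Of the 6 primitive endoderm markers, 5 were upregulated in Dax1KO cells in LIF/serum, with summed levels of 12283 to 14567 normalized counts against 3915 to 5488. The trophectoderm list summed to 4436 to 4974 against 3723 to 3785 (without Tfap2c 3490 to 4223 against 2312 to 2355), with 2 of 6 upregulated and 1 downregulated. The primitive streak list summed to 920 to 1057 against 527 to 581 (without Eomes 354 to 374 against 235 to 269), with Eomes as the 1 marker of 8 that passed. The neural ectoderm list summed to 812 to 814 against 1163 to 1243 (without Nes 365 to 390.01 against 664 to 682), with 1 of 5 tested markers downregulated (Pax6). Their part in the differences of the response genes was not tested.

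The size of the Dax1KO effect differed between the media for Nkd1. The effect was 0.25 in 2i/LIF and 1.64 in LIF/serum, and the difference of -1.38 (standard error 0.28) passed the edgeR test of the interaction (adjusted p = 0.0439), the only one of the 9 to do so, against 2.87% of all genes (0.824% with a positive and 2.05% with a negative difference, 2i/LIF minus LIF/serum). The call rested on every library, since without each of the 8 in turn the edgeR adjusted p lay between 0.0582 and 0.173, and the difference between -1.58 and -1.204. Without the filter on low counts the edgeR adjusted p was 0.0918. Sp5 had effects of 1.11 and -1.65 and a difference of 2.77 (95% interval 1.36 to 4.17, edgeR adjusted p = 0.0577). Notum had effects of -2.83 and -1.14 and a difference of -1.69 (-2.58 to -0.81, edgeR adjusted p = 0.0627). Both passed with DESeq2 (adjusted p = 0.00237 and 0.000658). With a library left out, the difference of Sp5 ranged from 2.27 to 3.60, the highest without control replicate 1 in 2i/LIF. For Axin2 the difference was -0.02 (95% interval -0.68 to 0.64), for Cdx1 0.50 (-0.54 to 1.54), for Tcf7 -0.55 (-0.93 to -0.18, edgeR adjusted p = 0.120) and for Lef1 -1.96 (-3.90 to -0.02, edgeR adjusted p = 0.255). Leaving out a LIF/serum library moved Lef1 to -2.66 (without control replicate 2), -2.56 (without Dax1KO replicate 1) or -0.93 (without Dax1KO replicate 2). The comparisons of media and of genotypes share libraries, so the values of a gene in them are not independent.

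The other response genes did not follow Axin2 closely over the 8 libraries. The likeness of each gene to Axin2 was measured as the root mean square difference of log2 CPM over the 8 libraries after each gene was centred on its mean, and 20748 genes were ranked. Among protein-coding genes with a mean of at least 100 normalized counts, the nearest were Rbm28 (0.109), Selenoo (0.121), Tepsin (0.124), Fam214b (0.131) and Isy1 (0.133), with a median of 0.586 over all genes ranked. Rbm28 and Isy1 lie on chromosome 6. Tcf7 was the nearest of the other response genes at 0.676 (rank 12452), and Lef1 the farthest at 1.79 (rank 19785). All 8 distances were above the median over all genes ranked, on a measure that also grows with a gene's own range.

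The other genes of the pathway were taken from lists by role, 92 genes of which 82 passed the filter. In control cells, 33 of the 82 passed between the media, 20 upregulated and 13 downregulated in 2i/LIF, near the 36.8% of all genes (20.3% up and 16.5% down), the share against which the counts by role below are also to be read. Of 13 genes of the antagonist list, 5 were up and 2 down. The 5 were the secreted Dkk3, Sfrp1 and Wif1, the membrane receptor Kremen1 and the intracellular Nkd2, and the 2 were the secreted Dkk1 and Sfrp4. Dkk1, which blocks Lrp5 and Lrp6, was 39.4-fold lower in 2i/LIF (log2 fold change -5.30, standard error 0.38, edgeR adjusted p = 6.09e-05), with group means of 7.01 against 281 normalized counts. Wif1 and Sfrp1, which bind Wnt proteins, rose by 3.96 and 1.61, and Dkk3 rose by 2.85 on the log2 scale (edgeR adjusted p = 0.00121, 0.000284 and 5.69e-05). Of 11 other targets, 2 rose and 3 fell. Apcdd1 rose by 1.88 and Tnfrsf19 by 0.72 on the log2 scale (edgeR adjusted p = 0.000189 and 0.00885). Myc had a log2 fold change of -4.86 (edgeR adjusted p = 5.18e-05) and Ascl2 of -2.36 (0.00795). Cdx2, listed at 0 in both control libraries in 2i/LIF, was at least 6.73-fold lower against the floor of 3 counts per library (edgeR adjusted p = 0.0124).

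Upstream of β-catenin, Porcn, the enzyme that lipidates Wnt proteins for secretion, was 18.1-fold lower in 2i/LIF in control cells (log2 fold change -4.18, standard error 0.31, edgeR adjusted p = 6.99e-05). Of 14 ligands, 2 rose and 2 fell, with Wnt5a at -2.60 and Wnt5b at 1.45 (edgeR adjusted p = 0.0452 and 0.0274) and Wnt16 at least 10.2-fold higher against the floor (0.0183). Of 17 receptors, 4 rose and 2 fell, with Ror2 at 1.33 and Fzd7 at -2.85 (edgeR adjusted p = 0.00131 and 7.74e-05). In the group of Dishevelled and the destruction complex, 2 of 12 rose and 1 fell. Gsk3b, a target of CHIR99021, rose by 1.06 (standard error 0.21, edgeR adjusted p = 0.00546) and Btrc, which directs β-catenin to degradation, by 1.28 (0.000366). The other GSK3 gene, Gsk3a, did not pass, with 0.13 (edgeR adjusted p = 0.363). Csnk1a1, the kinase that primes β-catenin, had -0.29 (edgeR adjusted p = 0.0409) and lost its call without 7 of the 8 libraries. Ctnnb1 did not pass, with a log2 fold change of 0.42 (edgeR adjusted p = 0.108). Of 11 TCF factors and co-factors, 5 rose and 1 fell, the corepressors Tle2 at 2.15, Tle3 at 0.94 and Tle4 at -1.37 among them (edgeR adjusted p = 0.0265, 0.00142 and 0.000752). Tcf7l1 was at 0.35 (edgeR adjusted p = 0.0943). In Dax1KO cells, 29 of the 82 passed between the media, 13 up and 16 down, against 28.9% of all genes (15.2% up and 13.7% down), with Dkk1 at -6.05, Myc at -4.26 and Porcn at -2.35 (edgeR adjusted p = 4.36e-05, 0.000103 and 0.000756). With a library left out the counts were as low as 19 in control cells (without control replicate 2 in 2i/LIF) and 16 and 18 in Dax1KO cells (without Dax1KO replicate 2 in 2i/LIF and in LIF/serum). Of the genes named in control cells, Wnt5a lost its call without 6 of the 8 libraries, Wnt5b, Wnt16, Tle2 and Kremen1 without 3, Cdx2 and Nkd2 without 2 and Ascl2 without 1. Without the filter on low counts Wnt5a, Wnt5b, Wnt16 and Tle2 lost theirs.

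**Figure D4:**
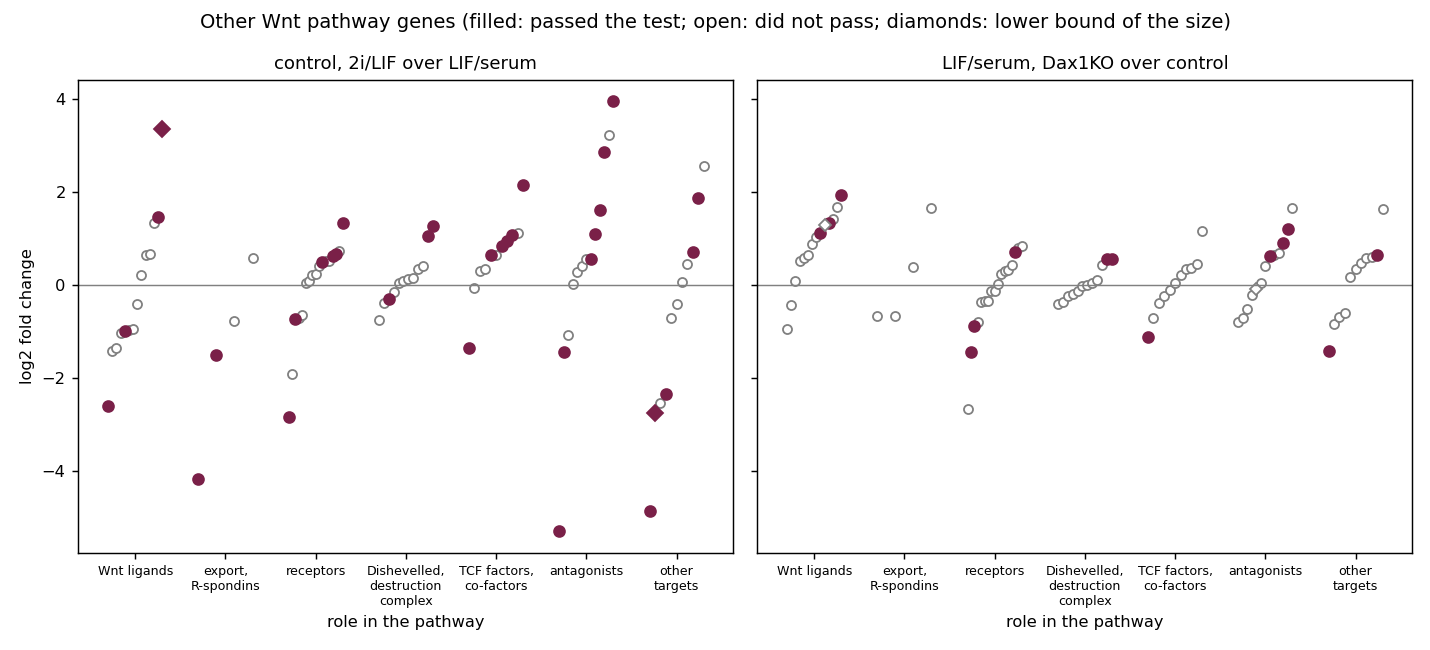
Log2 fold change (y axis) of the 82 other Wnt pathway genes tested, by role (x axis), for 2i/LIF over LIF/serum in control cells (left) and Dax1KO over control in LIF/serum (right). Each point is a gene, filled where it passed the test, and diamonds show genes with a group at the floor of detection at the lower bound of their fold change. In control cells 33 genes passed, in each role list in both directions except export and R-spondins, and 14 passed in LIF/serum.

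Between genotypes, 5 of the 82 pathway genes passed in 2i/LIF, 1 up and 4 down, and 14 in LIF/serum, 10 up and 4 down. These shares compare with 3.16% and 14.7% of all genes. Some of the 82 lie on chromosome 6, where the median Dax1KO over control log2 ratio was 0.44 in 2i/LIF and 0.52 in LIF/serum. Among them is the co-receptor Lrp6, which passed as upregulated in LIF/serum, a call lost without the filter on low counts. The cell cycle gene Ccnd1, a Wnt target in several tissues, was lower in Dax1KO cells in both media, with log2 fold changes of -2.12 in 2i/LIF (standard error 0.18, edgeR adjusted p = 0.00436) and -1.42 in LIF/serum (standard error 0.18, edgeR adjusted p = 0.00382). The receptor Fzd2 had -1.13 and -1.45 (edgeR adjusted p = 0.0438 and 0.00803). In LIF/serum, the ligands Wnt3a, Wnt6 and Wnt9a were upregulated, Wnt3a by 1.95 (standard error 0.45, edgeR adjusted p = 0.0270). From the antagonist list, Dkk1 rose by 1.22 and Dkk3 by 0.91 there (edgeR adjusted p = 0.0255 and 0.0208). Fzd7 and Tle4 were downregulated there, at -0.88 and -1.12 (edgeR adjusted p = 0.0269 and 0.00758). In 2i/LIF, Sfrp1 had -0.91 (edgeR adjusted p = 0.0306). Of the 5 calls in 2i/LIF, that of Ccnd1 alone held without each of the 8 libraries in turn and without the filter on low counts, and Sfrp1 and Fzd2 each lost theirs without 6 of the 8, among them every 2i/LIF library. In LIF/serum the calls of Ccnd1 and Fzd2 held without each library, while Wnt9a lost its call without all 8, Wnt3a without 5, Wnt6, Dkk1 and Fzd7 without 4, Dkk3 without 2 and Tle4 without 1, and without the filter Wnt3a, Wnt9a, Dkk1 and Fzd7 lost theirs. The count of 14 fell to as few as 3 (without Dax1KO replicate 2 in LIF/serum). For Dkk3 and the receptor Ror2 the effect of Dax1KO differed between the media, by -1.44 and -1.31 (2i/LIF minus LIF/serum, edgeR adjusted p = 0.0375 and 0.0458). Both calls were lost without each of the 8 libraries in turn and without the filter on low counts.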

How the data were processed

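The 8 mRNA libraries, 2 for each combination of genotype and medium, were sequenced on an Illumina HiSeq instrument, and each was assigned from its title and description. The deposited values are raw counts per gene, not normalized by the authors. The submitters' processing notes list HISAT2 2.0.4, DESeq2 and mm10. The counting tool, the annotation and the use of strand are not given in the sources used here, so a gene that overlaps another may hold its reads. Of the 52550 Ensembl identifiers, 52403 were found in GENCODE M21 of GRCm38, which gave symbols and coordinates. Totals of 35911384 to 37286251 counts give every library a like counting error, while the spread between the libraries of a group was larger and differed by group.

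The analysis used edgeR 4.0.16 under R 4.3.3. Low counts were removed with filterByExpr, libraries were scaled with TMM, and all 8 libraries entered a quasi-likelihood fit with 4 group means (prior degrees of freedom 4.04, biological coefficient of variation 20.9%). P-values were adjusted over the 20749 genes tested. To pass, a gene needed an adjusted p no higher than 0.05 and a difference of 1.2-fold or more, and for the interaction of genotype and medium the adjusted p alone. Intervals are at 95%. The floor of detection was set at 3 counts, which covers counting error only. Log2 CPM used a prior count of 2. Named were the 9 response genes, at most 4 genes of each pathway list with the largest changes among those that passed in control cells between media or between genotypes, Ctnnb1, Gsk3b and Tcf7l1, and the 5 genes nearest to Axin2. The ligands Wnt6 and Wnt9a and the antagonists Kremen1, Nkd2 and Sfrp4 were named after their values were seen. So were the co-receptor Lrp6, the kinase gene Gsk3a and the other targets Apcdd1 and Tnfrsf19. The 9 genes and all lists were chosen with earlier results of these data known.

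Longest transcripts were compared with blastn 2.17.0 at 95% identity, and promoter windows came from RefSeq for GRCm38.p6. The model was first tested on simulated data with known changes. Alternatives were DESeq2 1.42.0, RLE factors, library size alone, the unfiltered table, a minimum of 10 counts per library, a separate fit of the groups compared, a replicate block, counts divided by 3, and each library left out. Of an arm left with 1 library, the spread was taken from the other groups. No 2 libraries of a group differed by less than sampling noise (chi-square per degree of freedom 22.8 to 61.7).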

Additional observations from a re-analysis of the deposited data

Results flagged for a closer look

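For Nkd1, the test of the difference itself gave an effect of Dax1KO that was not the same in the media: the log2 fold change in 2i/LIF minus that in LIF/serum was -1.38 (edgeR adjusted p = 0.0439). This call was lost without each of the 8 libraries in turn (edgeR adjusted p from 0.0582 to 0.173) and without the filter on low counts (0.0918). Each Dax1KO library in LIF/serum, at 353 and 408 normalized counts, was above each control library, at 106 and 139. In 2i/LIF the values were 486 and 516 against 389 and 453. The cause was not tested.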

How the results depend on the processing

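Of 696 recomputed log2 fold changes of the 9 genes, 613 kept direction and side of the threshold, 33 lost and 27 gained a call, and 23 turned sign, all of them values that had not passed. The turned values without leaving out a library were T between media in control cells (-0.028) and in the interaction (0.30), both with the replicate number as a block, and Axin2 in the interaction (0.0041 with at least 10 counts, 0.0042 with counts divided by 3). With a library left out, T ranged from -0.75 to 0.91 and -0.75 to 2.22 between media in control and Dax1KO cells, -1.33 to 0.36 and -2.62 to 0.36 between genotypes in 2i/LIF and LIF/serum, and -1.09 to 1.89 in the interaction. Cdx1 between media in control cells ranged from -0.10 to 0.81, Lef1 between genotypes in LIF/serum from -1.21 to 0.52, Wnt3 there from -0.70 to 0.26 and in the interaction from -0.93 to 0.028, and Axin2 in the interaction from -0.25 to 0.29. The count of response genes between media in Dax1KO cells was 6 in a separate fit and 6 with the replicate block, against 3. Without the filter, which tests more genes, it was 1 between genotypes in 2i/LIF, 2 in LIF/serum and 0 in the interaction (5 at an unadjusted p under 0.05 with the filter). In the interaction it was 3 with DESeq2, 3 with at least 10 counts and 3 with counts divided by 3. Of the pathway genes between genotypes in 2i/LIF, 8 passed with DESeq2, 1 without the filter, 1 in a separate fit and 3 with the replicate block, against 5. In LIF/serum 6 passed without the filter and 7 in a separate fit, against 14, and in the interaction 4 with DESeq2 and 0 without the filter, against 2. With a library left out, counts of response genes were 4 to 6 and 2 to 5 between media in control and Dax1KO cells, 1 to 2 and 1 to 4 between genotypes in 2i/LIF and LIF/serum, and 0 to 1 in the interaction, and counts of pathway genes 19 to 32, 16 to 28, 1 to 2, 3 to 12 and 0 to 0. The cause was not tested. Same-numbered libraries deviated together only weakly (correlations of -0.015 to 0.108 across genes, the highest between the LIF/serum groups), so the numbers were not taken as pairs. With the block Sp5 lost its call in LIF/serum (edgeR adjusted p = 0.0574). With 2 libraries a group, genes of low counts such as T and Wnt3 have wide intervals.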
